A study of Homo sapiens with 8 samples.

Results

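The BCL2 family decides whether the outer membrane of the mitochondrion stays closed. The 10 of its genes followed here are the anti-apoptotic BCL2, BCL2L1 (BCL-XL), MCL1 and BCL2A1 (BFL-1), the effectors BAX and BAK1, and the BH3-only genes BBC3 (PUMA), BCL2L11 (BIM), PMAIP1 (NOXA) and BID. They are 10 of the 18132 genes with a probe set on the array, and each was read from the brightest of its single-gene probe sets, by the mean of 8 arrays. All 10 had a mean above the 5.83 log2 that a gene needed to be tested, as had 12845 genes in all. Anti-apoptotic members hold effectors and BH3-only proteins in a groove on their surface. BH3-only proteins, made or activated under stress, fill that groove or engage BAX and BAK1 directly, and the effectors then form pores that release cytochrome c. In myeloid cells MCL1 is known as a survival gene from progenitor to granulocyte, and BCL2A1 as one induced by inflammatory signals.

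The arrays measured RNA of the NB4 cell line, grown from a human acute promyelocytic leukaemia and infected with lentivirus (multiplicity of infection, 10). A single shRNA construct was used per sample, shCDK2 #10, #3 or #1 against the kinase gene CDK2, or a scrambled control (scramble). RNA was taken after 5 days, called the late differentiation stage, or after 2 days, the early one, and the labels name no differentiating agent. There was 1 Affymetrix array for each construct and day, thus 3 hairpin arrays and 1 scramble array per day, and all samples, scramble included, received a lentiviral vector. The values are log2 signals as deposited. Whether arrays stand for separate cultures is not labelled, and p-values cover the spread between these arrays alone, which may be technical, and the number of arrays limits the precision. In such bulk RNA fewer cells that express a gene and less RNA per cell cannot be told apart.

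The signal of the targeted gene did not follow the labels in every array. CDK2 signal, in percent of scramble on that day, was 92.9% in #10, 72.3% in #3 and 81.1% in #1 at day 5, and 34.0% in #10, 95.0% in #3 and 39.9% in #1 at day 2. The day 5 array of #10 and the day 2 array labelled shCDK2 #3 thus had almost the scramble signal of their day. The day 5 array labelled scramble stood at 8.19 log2 against 9.10 in scramble at day 2, low for a control. A single gene does not show whether a label is right. In BBC3 and BNIP3, given below, the #3 array of day 2 lay with #10, and in BCL2A1 and MCL1 with scramble. Several results are also given without the day 2 array labelled shCDK2 #3 or without the day 5 array labelled scramble. The latter was kept where it is the lone scramble array of its day. Of the promyelocyte granule genes, MPO had a mean of 14.11 log2, PRTN3 10.56, AZU1 9.33, CTSG 8.54 and ELANE 6.18 (CD33 was not analysed here). Their summed signal, mostly that of MPO, was 13.7 to 14.6 log2 in hairpin arrays and 14.3 to 14.6 in scramble arrays. All were above the filter, but so were 4 of 4 fibroblast and epithelial markers, so passing it does not show that a gene is expressed.

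The members shown first are BCL2A1 and BBC3, and their promoters are shown because the 2 genes, one that keeps cells alive and one that kills them, were both high in #10. RefSeq promoters (250 bases before to 50 after the start, GRCh38.p14) were found for 9 of the 10 members, MCL1 being named only. Capitals mark the motifs found. BCL2A1 (chr15:79971147-79971446, minus strand, 41.0% G or C) has the TATA box TATAAA 70 bases before the start and the interferon response core TTTCNNTTTC 133 bases before it. BBC3 (chr19:47232618-47232917, minus strand, 48.0% G or C) has the E-box CACGTG 232 bases before the start and the AP-1 motif TGAGTCA 113 bases before it. It also holds TTTCNNTTTC on the opposite strand, as an overlapping pair of matches 25 and 31 bases after the start.
BCL2A1: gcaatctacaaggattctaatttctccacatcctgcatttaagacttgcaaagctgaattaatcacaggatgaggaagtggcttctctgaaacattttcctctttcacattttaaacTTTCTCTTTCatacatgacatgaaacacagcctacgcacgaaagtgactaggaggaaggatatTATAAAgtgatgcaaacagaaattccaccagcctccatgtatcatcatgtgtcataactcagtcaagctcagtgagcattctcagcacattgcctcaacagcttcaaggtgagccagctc
BBC3: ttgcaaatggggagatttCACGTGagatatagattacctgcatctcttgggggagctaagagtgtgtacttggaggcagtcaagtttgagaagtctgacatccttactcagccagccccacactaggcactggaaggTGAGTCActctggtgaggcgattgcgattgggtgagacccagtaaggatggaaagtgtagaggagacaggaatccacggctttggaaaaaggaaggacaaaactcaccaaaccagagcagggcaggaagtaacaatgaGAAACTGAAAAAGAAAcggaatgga
The start used for BBC3 lies inside the gene's annotated span, so other starts have other upstream letters.

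Both strands were searched, with motifs chosen when the letters had been seen. Of all 35116 promoters of this length, 11.53% hold TATAAA (BCL2A1 and BCL2L1 among the members), 3.57% TTTCNNTTTC (BCL2A1 and BBC3), 4.95% TGACTCA or its reverse complement TGAGTCA (BBC3) and 7.26% CACGTG (BBC3, BAX and BID). The FOXO motif GTAAACA is in 3.42% of them and in that of BCL2L11. The NF-kB motif (11.27%) and the E2F motifs TTTCCCGC or TTTGGCGC (2.27%) were in 0 of the 9 windows. A match describes letters and not a bound site, and a window without one says nothing of the factor.

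BCL2A1 was the most variable member. Its log2 signal at day 5 was 10.38 in #10, 9.12 in #3 and 6.24 in #1, against 6.19 in the day 5 array labelled scramble. At day 2 it was 8.76 in #10, 5.79 in the day 2 array labelled shCDK2 #3 and 6.69 in #1, against 5.93 in scramble. Thus 3 arrays, both of #10 and #3 at day 5, stood at 8.76 or more, and the other 5 at 6.69 or less. Relative to scramble of the day, the signal was 18.3-fold in #10, 7.61-fold in #3 and 1.04-fold in #1 at day 5, and 7.13-fold in #10, 0.906-fold in #3 and 1.69-fold in #1 at day 2. Both scramble values lie near the 5.83 log2 of the filter, where signals are dim, so the size of these folds is uncertain.

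MCL1, the labile guardian of BAK1, followed the same arrays at a smaller scale. At day 5 its log2 signal was 12.60 in #10, 12.18 in #3 and 11.37 in #1, against 11.30 in the day 5 array labelled scramble, and at day 2 it was 12.51 in #10, 11.06 in the day 2 array labelled shCDK2 #3 and 11.51 in #1, against 11.12 in scramble. The 2 arrays of #10 and the #3 array of day 5 were again the highest, at 12.18 or more, and no other array exceeded 11.51. Both #10 arrays stood about equally far above scramble, 2.48-fold at day 5 and 2.61-fold at day 2. Over the 8 arrays, which share 4 constructs and 2 days, MCL1 and BCL2A1 had a Pearson r of 0.97, the highest of any pair of members.

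The other anti-apoptotic genes did not share this pattern. BCL2, the founder of the family, had 6.68 log2 in #10, 7.46 in #3 and 6.52 in #1 at day 5, against 6.70 in the day 5 array labelled scramble. At day 2 it had 7.10 in #10, 7.68 in the day 2 array labelled shCDK2 #3 and 6.54 in #1, against 7.60 in scramble. Its scramble arrays lay 0.90 log2 apart and spanned most of the range of the hairpins. BCL2L1 had 8.91 log2 in #10, 8.08 in #3 and 8.58 in #1 at day 5, against 8.21 in the day 5 array labelled scramble, and 7.81 in #10, 7.96 in #3 and 8.22 in #1 at day 2, against 8.08 in scramble. Its lowest and its highest array were both of #10.

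The effectors BAX and BAK1, which form the pore, stayed within 0.74 and 0.65 log2 over all 8 arrays. BAX had 8.68 log2 in #10, 8.69 in #3 and 8.85 in #1 at day 5, against 8.72 in the day 5 array labelled scramble, and 9.42 in #10, 9.02 in #3 and 9.27 in #1 at day 2, against 8.97 in scramble. BAK1 had 9.33 log2 in #10, 8.74 in #3 and 9.34 in #1 at day 5, against 8.88 in the day 5 array labelled scramble, and 8.69 in #10, 8.90 in #3 and 9.17 in #1 at day 2, against 9.19 in scramble. For both genes the scramble values lay within the range of the hairpin arrays at day 5, and at day 2 they lay below them for BAX and above them for BAK1.

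Among the BH3-only genes, BBC3 was above scramble in 6 of 6 hairpin arrays on its chosen probe set. The hairpin arrays of a day share 1 scramble array, so these are not 6 separate observations. At day 5 its log2 signal was 10.05 in #10, 10.28 in #3 and 9.03 in #1, against 8.83 in the day 5 array labelled scramble. At day 2 it was 9.63 in #10, 9.81 in the day 2 array labelled shCDK2 #3 and 8.65 in #1, against 8.56 in scramble. The 4 arrays of #10 and #3 stood at 9.63 or more, and the 4 arrays of #1 and scramble at 9.03 or less. Signal relative to scramble of the day was 2.34-fold in #10, 2.74-fold in #3 and 1.16-fold in #1 at day 5, and 2.09-fold in #10, 2.37-fold in #3 and 1.06-fold in #1 at day 2. BBC3 was thus high in the day 2 array labelled shCDK2 #3, where BCL2A1 and MCL1 were not and CDK2 had 95.0% of its scramble signal.

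BCL2L11, whose protein binds every anti-apoptotic member, had 8.43 log2 in #10, 8.83 in #3 and 7.57 in #1 at day 5, against 8.37 in the day 5 array labelled scramble. At day 2 it had 9.00 in #10, 7.97 in #3 and 8.21 in #1, against 7.92 in scramble. PMAIP1, whose protein binds MCL1, had 7.54 log2 in #10, 7.54 in #3 and 7.48 in #1 at day 5. The day 5 array labelled scramble had 7.31. At day 2 PMAIP1 had 8.06 in #10, 6.67 in #3 and 7.24 in #1, against 7.57 in scramble. For both BCL2L11 and PMAIP1, #10 at day 2 was the highest array. The hairpin arrays lay on either side of scramble on that day for PMAIP1 and at day 5 for BCL2L11.

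BID, cut by caspase 8 to link death receptors to mitochondria, had 11.24 log2 in #10, 10.85 in #3 and 10.89 in #1 at day 5, against 10.73 in the day 5 array labelled scramble. At day 2 it had 10.28 in #10, 10.68 in #3 and 10.63 in #1, against 10.95 in scramble. The 3 hairpin arrays differed from their scramble array by 0.51 in #10, 0.12 in #3 and 0.16 in #1 at day 5, and by -0.67 in #10, -0.27 in #3 and -0.32 in #1 at day 2. Each trio shares 1 scramble array, and the difference between the days is tested with the others.

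**Figure D1:**
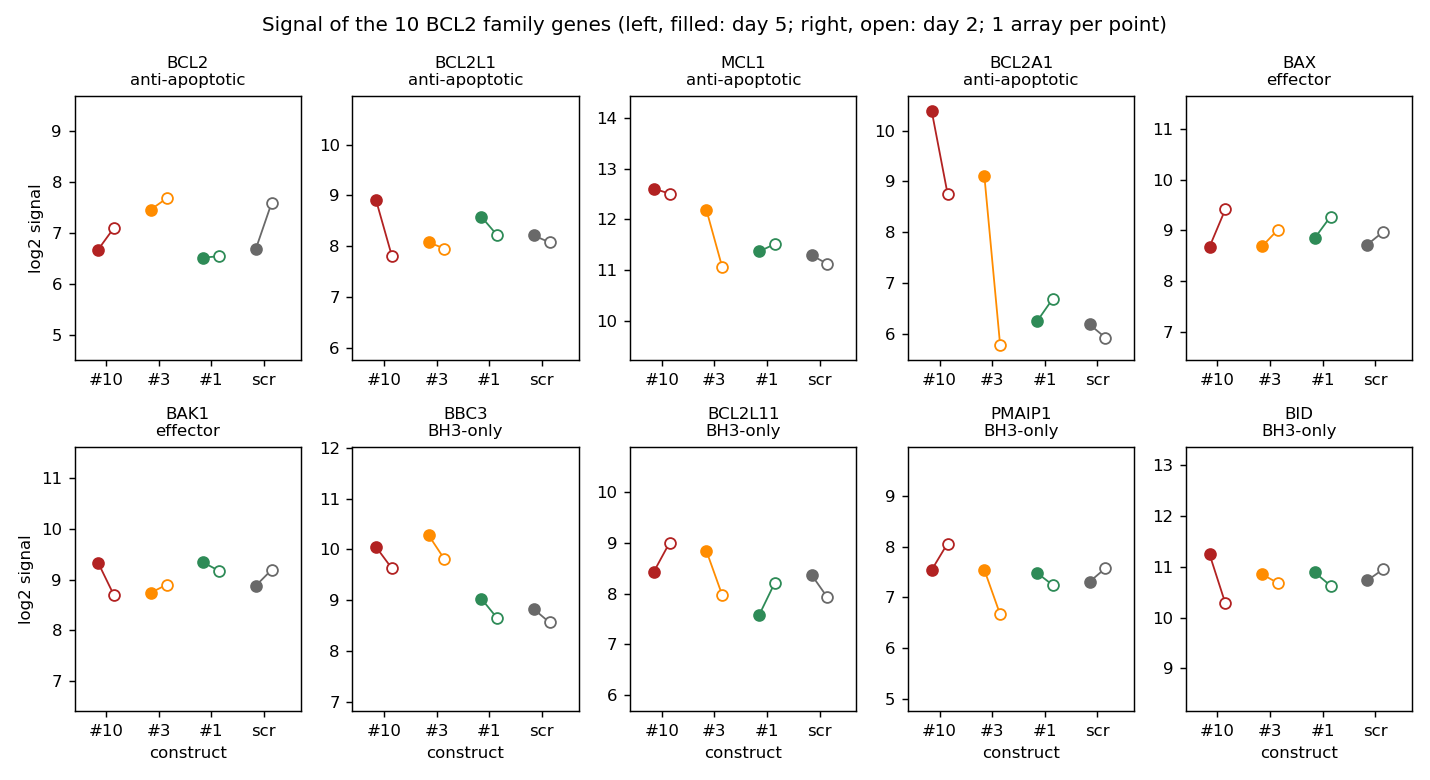
Log2 signal of the 10 members (vertical axis, the same height of scale in each panel) by construct (horizontal axis, shCDK2 #10, #3, #1 and scr for scramble), with a filled point for day 5 left of an open point for day 2 and 1 array per point. BCL2A1 spans 5.79 to 10.38 log2, BBC3 is high in both arrays of #10 and #3, and BAX and BAK1 stay within 0.74 log2.

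The members varied unequally over the 8 arrays. The standard deviation was 1.76 log2 for BCL2A1, a value that 0.257% of tested genes reached, 0.67 for BBC3 (4.73%) and 0.63 for MCL1 (5.55%). It was 0.49 for BCL2 (10.3%), 0.48 for BCL2L11 (11.1%), 0.39 for PMAIP1 (17.8%) and 0.36 for BCL2L1 (22.1%). The values of BID (0.28, reached by 35.3%), BAX (0.28, by 36.1%) and BAK1 (0.26, by 40.8%) were close to the median of 0.23 over all tested genes.

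**Figure D2:**
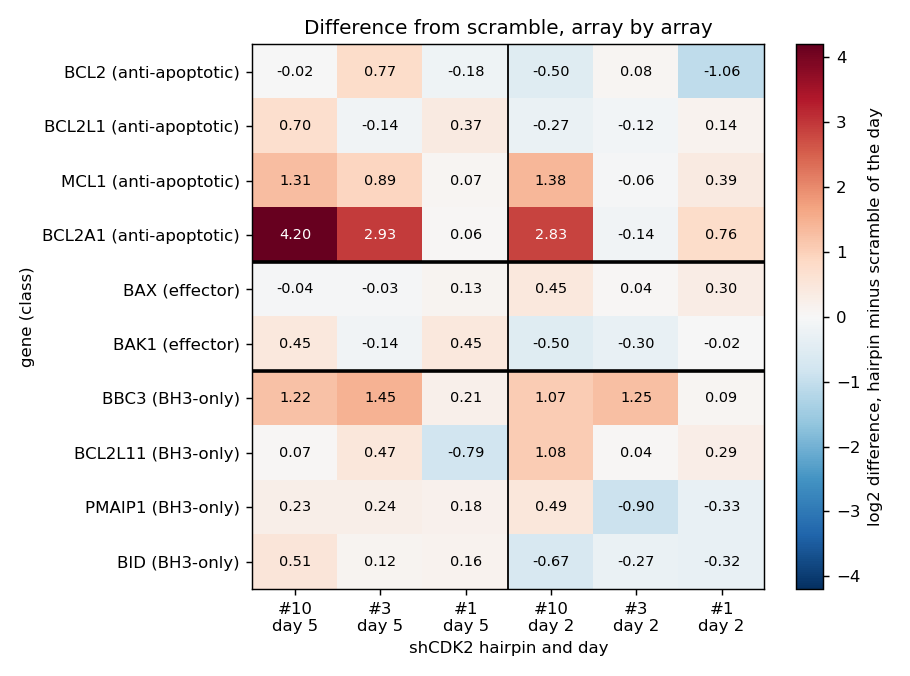
Log2 difference of each hairpin array from the scramble array of its day (columns, day 5 on the left and day 2 on the right, 3 hairpins each) for the 10 members (rows, with lines between the classes), with red above scramble and blue lower. The darkest cells are BCL2A1 in #10 at day 5 (4.20), in #3 at day 5 (2.93) and in #10 at day 2 (2.83).

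The classes were described array by array by their median difference from scramble, and no difference between classes was tested. The median difference of the 4 anti-apoptotic members was 1.00 log2 in #10, 0.83 in #3 and 0.07 in #1 at day 5, and 0.56 in #10, -0.09 in #3 and 0.27 in #1 at day 2. That of the 4 BH3-only members was 0.37 in #10, 0.35 in #3 and 0.17 in #1 at day 5, and 0.78 in #10, -0.11 in #3 and -0.12 in #1 at day 2. The 2 effectors had 0.20 in #10, -0.09 in #3 and 0.29 in #1 at day 5, and -0.03 in #10, -0.13 in #3 and 0.14 in #1 at day 2. Over all tested genes the median lay between -0.11 and 0.03 in these arrays. The class medians hide unlike members: in #10 at day 5 the anti-apoptotic members ran between -0.02 (BCL2) and 4.20 (BCL2A1), and the BH3-only members between 0.07 (BCL2L11) and 1.22 (BBC3).

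Differences of more than 1 log2 were counted in each array for the members and for all tested genes. Members more than 1 log2 from scramble numbered 3 of 10 in #10, 2 in #3 and 0 in #1 at day 5, where 6.11% (#10), 6.54% (#3) and 0.888% (#1) of all tested genes were that far from it. At day 2 they numbered 4 in #10, 1 in #3 and 1 in #1, against 10.8% (#10), 1.92% (#3) and 0.817% (#1) of all tested genes.

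For a test of a single hairpin its 2 days served as repeats, in a limma fit with construct and day as terms, and a gene was called when its two-sided p, Benjamini-Hochberg adjusted over all 12845 genes, was under 0.05. Against scramble, shCDK2 #10 had 1 of the 10 members called, BBC3, where 2.01% of all tested genes were called (217 higher and 41 lower). BBC3 rose by 1.15 log2 (SE 0.17, 95% confidence interval 0.74 to 1.55, limma adjusted p = 0.032). BCL2A1 had the larger difference, 3.52 log2 (SE 0.76, interval 1.74 to 5.29), but missed the threshold with a limma adjusted p of 0.066. MCL1 had 1.35 log2 (SE 0.30, interval 0.65 to 2.05, limma adjusted p = 0.070). Without the day 5 array labelled scramble they had 2.89 (adjusted p = 0.300) and 1.25 log2 (0.277). Only 0.195% of tested genes differed by as much as BCL2A1 in #10, while 4.69% did so for BBC3 and 3.18% for MCL1.

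The rest of the family had small or uneven differences in #10. BCL2L11 stood at 0.57 log2 (limma adjusted p = 0.468, and 0.17 to 0.97 log2 when single arrays were left out), PMAIP1 at 0.36 (0.607), BCL2L1 at 0.22 (0.721), BAX at 0.20 (0.638), BAK1 at -0.03 (0.962), BID at -0.08 (0.903) and BCL2 at -0.26 (0.622). For BAX the 95% confidence interval ran from -0.25 to 0.65 log2 and for BAK1 from -0.61 to 0.56. The chosen probe sets thus allow differences of the effectors up to those sizes. The other probe set of BAX stood outside its interval, at -0.45 log2. By class, 3 of 4 anti-apoptotic, 1 of 2 effector and 3 of 4 BH3-only members were above scramble, with medians of 0.78, 0.09 and 0.47 log2, against -0.09 over all tested genes.

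The call of BBC3 in #10 rested on single arrays. It was lost without the array of #10 at day 5 (limma adjusted p = 0.082) or day 2 (0.103), and when the day 5 array labelled scramble (0.190) or the day 2 scramble array (0.197) was left out, with changes of 1.07 to 1.23 log2. Without #3, BBC3 (limma adjusted p = 0.015), BCL2A1 (0.019) and MCL1 (0.014) were all called in #10, among 7.47% of all tested genes. Without #1 the same 3 were called, among 2.76% (0.039, 0.014 and 0.049). Leaving out a single array of #3 or #1, of either day, gave the same calls. The differences of #10 from scramble stayed the same, since these arrays enter that comparison through the spread alone.

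In shCDK2 #3, 0 of the 10 members were called, against 0.0311% of all tested genes, and 1 member had an unadjusted p under 0.05. That member was BBC3, at 1.35 log2 above scramble (SE 0.17, interval 0.95 to 1.75, limma adjusted p = 0.089). Without the day 2 array labelled shCDK2 #3 it stood at 1.41 log2, and leaving out single arrays or hairpins gave 1.27 to 1.43. BCL2A1 stood at 1.39 log2 (SE 0.76, adjusted p = 0.609) and MCL1 at 0.41 (0.679). These joined unlike days, and without the #3 array of day 2 they became 2.82 and 0.95 log2, while without that of day 5 they became -0.03 and -0.13. Without the day 5 array labelled scramble they were 0.77 and 0.32 log2.

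In shCDK2 #1, 0 of the 10 members were called, as were 0% of all tested genes, although CDK2 at day 2 was among the lowest there. BCL2 had the largest difference of the members, -0.62 log2 (SE 0.24, interval -1.17 to -0.06, unadjusted p = 0.033, limma adjusted p = 1.00), and was the only member with an unadjusted p under 0.05. It came mainly from day 2 (-1.06 log2), with -0.18 at day 5, and was -0.28 without the day 2 scramble array and -0.96 without the day 5 array labelled scramble. BCL2A1 stood at 0.41, MCL1 at 0.23 and BBC3 at 0.15 log2 (interval -0.25 to 0.55). The 3 comparisons with scramble share its 2 arrays, so their agreement was not counted.

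**Figure D3:**
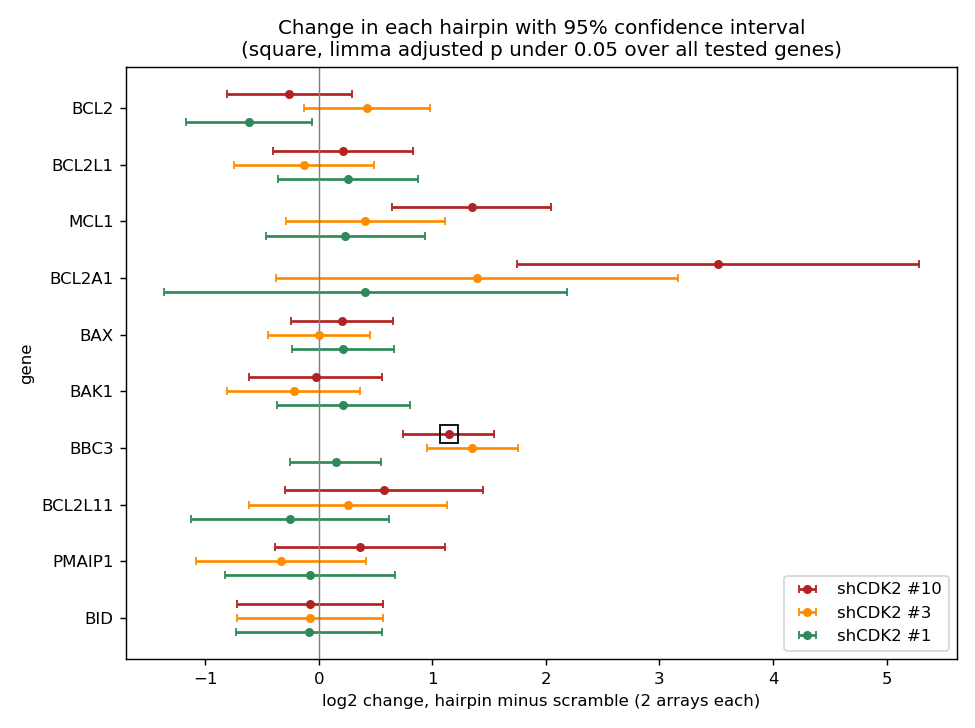
Change against scramble in log2 (horizontal axis) with 95% confidence intervals for the 10 members (vertical axis) in shCDK2 #10, #3 and #1, 2 arrays per construct. The square marks BBC3 in #10, the called change, and the intervals of BCL2A1 are the widest.

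Setting hairpins against each other leaves the scramble arrays out of the difference, but they still enter the day term and the spread. Between #10 and #1, 0 members were called, against 0.327% of all tested genes, and 3 had an unadjusted p under 0.05: BCL2A1 at 3.11 log2 (interval 1.33 to 4.88, limma adjusted p = 0.123), MCL1 at 1.11 (0.41 to 1.81, 0.152) and BBC3 at 1.00 (0.60 to 1.40, 0.068). These 3 were called without #3 (adjusted p of 0.032, 0.026 and 0.026, among 4.76% of all tested genes). With hairpin arrays only, 0 members and 0 of all tested genes were called between #10 and #1. BCL2A1 alone was called without #1 at day 2 (4.20 log2, 0.035, among 0.965% of all tested genes), and it had 2.02 log2 without #1 at day 5 (0.845). Between #10 and #3, 0 members and 0% of all tested genes were called, and 3 members had an unadjusted p under 0.05: BCL2A1 at 2.12 log2 (interval 0.35 to 3.89), MCL1 at 0.94 (0.24 to 1.64) and BCL2 at -0.68 (-1.24 to -0.13), with limma adjusted p of 0.809, 0.799 and 0.801. BBC3 differed by only -0.21 log2 between #10 and #3 (interval -0.61 to 0.20). Without the day 2 array labelled shCDK2 #3, BCL2A1 differed by 0.70 log2 between #10 and #3 (adjusted p = 0.584), and without #3 at day 5 by 3.55 (0.094).

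Between #3 and #1, 0 members and 0% of all tested genes were called, and 2 members had an unadjusted p under 0.05, BBC3 at 1.20 log2 (interval 0.80 to 1.60, limma adjusted p = 0.112) and BCL2 at 1.04 (0.49 to 1.59, 0.204). Without the day 2 array labelled shCDK2 #3, BBC3 was called (1.26 log2, adjusted p = 0.039), among 3.62% of all tested genes. The order of constructs was thus #10, #3, #1 and scramble for BCL2A1, with steps of 2.12, 0.98 and 0.41 log2, and #3, #10, #1 and scramble for BBC3, where #10 lay at -0.21 log2 from #3, 1.00 above #1, and #1 lay 0.15 above scramble. No step between neighbours passed the test.

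**Figure D4:**
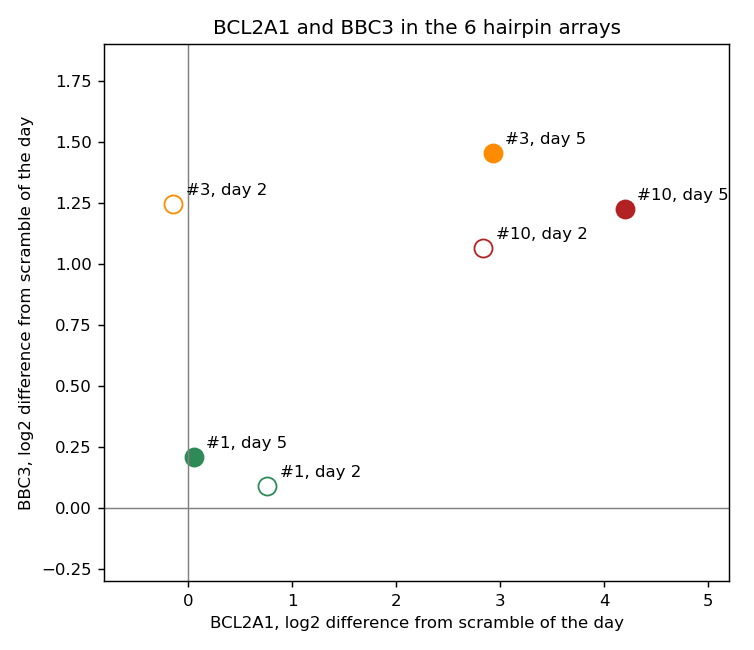
Log2 difference from scramble of the day for BCL2A1 (horizontal axis) and BBC3 (vertical axis), 1 point per hairpin array, filled for day 5 and open for day 2. Both arrays of #10 and #3 at day 5 are high for both genes, #3 at day 2 is high for BBC3 only, and both arrays of #1 are near scramble for BBC3.

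With the hairpins pooled as repeats of the knockdown, no member was called on either day by limma. At day 5, 0 of 10 members and 0% of all tested genes were called, and 9 of 10 stood above scramble: BCL2A1 at 2.39 log2 (SE 1.61, interval -1.39 to 6.18), BBC3 at 0.96 (SE 0.58) and MCL1 at 0.76 (SE 0.62), each with an adjusted p of 0.913. At day 2, 0 of 10 members and 0% of all tested genes were called, and 5 of 10 stood above scramble: BCL2A1 at 1.15 log2 (SE 1.61), BBC3 at 0.80 (SE 0.58) and MCL1 at 0.57 (SE 0.62), each with an adjusted p of 1.00. All differences of a day share its lone scramble array, so the members above it are not separate observations. At day 5, 37.8% (#10), 43.9% (#3) and 43.3% (#1) of all tested genes were above that array. Leaving out 1 hairpin array of the day moved the pooled values. At day 5, BCL2A1 had 1.49 log2 without #10 and 3.56 without #1, and MCL1 had 0.48 without #10. At day 2, BCL2A1 had 0.31 without #10 and 1.80 without the array labelled shCDK2 #3, MCL1 had 0.16 without #10 and 0.89 without that #3 array, and BBC3 had 0.58 without it. No member had an unadjusted p under 0.05 on either day, and 171 and 442 of all tested genes had one at day 5 and day 2. The spread between hairpins, such as 4.20, 2.93 and 0.06 log2 for BCL2A1 at day 5, sets these errors. An exact permutation test of 3 hairpins against 1 scramble could not give a p below 0.25 for a single gene.

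Between the days within shCDK2, 0 of 10 members and 0% of all tested genes were called by limma. BAX stood at -0.50 log2 at day 5 against day 2 (SE 0.16, unadjusted p = 0.017, adjusted p = 1.00), with -0.74 in #10, -0.33 in #3 and -0.42 in #1, and scramble at -0.25. BID stood at 0.47 (SE 0.18, unadjusted p = 0.037, adjusted p = 1.00), with 0.96 in #10, 0.17 in #3 and 0.26 in #1, and scramble at -0.22. BCL2A1 had the largest mean, 1.50 log2 (SE 1.14), made of 1.62 in #10, 3.33 in #3 and -0.44 in #1, and it was 0.60 without #10 at day 5, 2.67 without #1 at day 5, 2.34 without #10 at day 2 and 0.86 without the day 2 array labelled shCDK2 #3. The change against scramble at day 5 minus that at day 2 called 0 of 10 members and 0% of all tested genes, and 0 members had an unadjusted p under 0.05. For BID it was 0.69 log2 (interval -0.18 to 1.55, adjusted p = 1.00).

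Other probe sets of a gene did not always repeat its chosen one. The other set of BBC3 had 0.24 log2 in #10 against scramble and 0.08 in #3, with an r of 0.14 to the chosen set over the 8 arrays. With the mean of all sets BBC3 had 0.69 log2 in #10 and was not called (limma adjusted p = 0.064), so its call rests on 1 of 2 probe sets. Of 6 sets of MCL1, 4 were above scramble in #10, between 0.63 and 1.37 log2, and 2 stood at -0.03 and -0.14, and the mean of all sets had 0.69 (adjusted p = 0.197). The second set of BCL2A1 had a mean of 3.64 log2, under the filter, and -0.15 in #10, so that gene's value also rests on 1 set.

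BAX, at 0.20 log2 in #10 on the chosen set, had -0.45 on its other set (r of -0.29 between them). The fall of BAX between the days was not seen on that other set. From day 2 to day 5 it went from 8.25 to 8.41 log2 in #10, 8.25 to 8.30 in #3 and 8.54 to 8.94 in #1. BCL2L1 had -0.01 and -0.07 log2 on its other sets, and BCL2L11 had the sign of its chosen set on 5 of the 7 sets above the filter, with 0.013 for the mean of all its sets. In #10, all sets above the filter had the sign of the chosen one for BCL2 (4 of 4), BAK1 (4 of 4), BID (4 of 4) and PMAIP1 (2 of 2). For BID the sets followed each other, with r of 0.74 to 0.97. Those of BCL2 did not all do so, with r of 0.985, -0.20 and -0.34 to the chosen set. In #3 against scramble these sets stood at 0.39, -0.16 and -0.24 log2, against 0.42 on the chosen one. The BCL2 difference between #3 and #1 was as low as 0.31 log2 in the alternatives run.

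**Figure D5:**
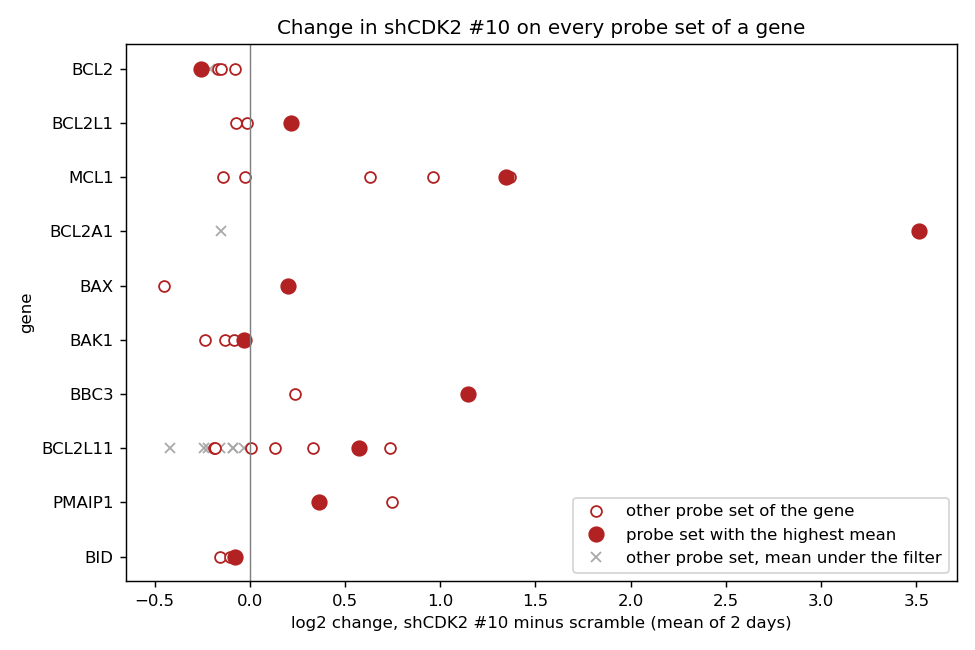
Log2 change in shCDK2 #10 against scramble, mean of 2 days (horizontal axis), on every single-gene probe set of the 10 members (vertical axis), with a filled point for the set with the highest mean, open points for other sets and crosses for sets under the filter. BBC3 stands at 1.15 on 1 set and 0.24 on the other.

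Among relatives outside the 10 members, the mitophagy receptors changed. BNIP3 and BNIP3L are BH3-like proteins of the outer mitochondrial membrane that mark mitochondria for autophagy. Both rose in #10, where 2 of 2 were called, against 2.01% of all tested genes. BNIP3 had 12.62 log2 in #10, 12.12 in #3 and 10.58 in #1 at day 5, against 9.33 in the day 5 array labelled scramble, and 12.84 in #10, 12.24 in #3 and 10.78 in #1 at day 2, against 10.70 in scramble. It was 2.71 log2 higher in #10 (SE 0.31, limma adjusted p = 0.016) and stood at 2.17 in #3 (0.098) and 0.66 in #1 (1.00). BNIP3L was 2.73 log2 higher in #10 (SE 0.34, adjusted p = 0.017), and also higher in #10 than in #1 (2.37 log2, adjusted p = 0.047), with 2.27 in #3 against scramble (0.098). For both genes the 4 arrays of #10 and #3 were above all 4 of #1 and scramble, as for BBC3. Without either scramble array 0 genes of any kind were called in #10, so these calls, and those of JUN, FOXO1, DUSP6, CD68 and CD3D in #10, need both.

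No other relative was called in #10, where 2.01% of all tested genes were. The BH3-only gene BMF stood at 1.11 log2 (adjusted p = 0.206), BIK at -0.41 (0.266), BAD at -0.15 (0.744) and HRK at -0.13 (0.776). Anti-apoptotic BCL2L2 stood at 0.41 (0.239) and BCL2L10 at 0.32 (0.751), the effector-like BOK at -0.30 (0.442), BCL2L12 at -0.45 (0.305) and BCL2L13 at -0.26 (0.552). BCL2L14 and BCL2L15 lay under the filter.

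Downstream of the family, 0 of 5 tested genes of the apoptosome and caspases were called in any comparison. So were 0 of 5 of the IAPs and their antagonists and 0 of 6 mitochondrial partners. Of all tested genes, 2.01% were called in #10 and 0.0311% in #3 against scramble, 0.327% in #10 against #1, and 0% elsewhere. At such shares, a lack of calls says little about lists this short. The medians of the 3 lists in #10 were -0.28, -0.32 and -0.35 log2, against -0.09 over all tested genes. CYCS, cytochrome c itself, stood at -0.46 log2 in #10 (adjusted p = 0.300), CASP2 at -0.28 (0.662), BIRC2, an inhibitor of apoptosis, at 1.23 (0.125), and BIRC5, the mitotic survivin, at -0.92 (0.102). The channel gene VDAC3 stood at -0.31 (0.382) and the mitochondrial nuclease gene ENDOG at -0.43 (0.228). ENDOG was below scramble in 6 of 6 hairpin arrays, with 1 scramble array shared per day. APAF1 lay under the filter, and BIRC3 was not analysed here.

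Upstream, 2 of 14 tested transcription factors known to act on family genes were called in #10, where 2.01% of all tested genes were, with a median of 0.62 log2 over the list. JUN, a subunit of AP-1, rose by 3.48 log2 (SE 0.38, adjusted p = 0.015). JUN had 10.96 log2 in #10, 9.34 in #3 and 8.13 in #1 at day 5, against 7.08 in the day 5 array labelled scramble. At day 2 it had 9.38 in #10, 6.82 in #3 and 7.11 in #1, against 6.30 in scramble. It was thus above scramble in 6 of 6 arrays, with 1 scramble array shared per day. The other was FOXO1, a forkhead factor held back by AKT, which had 6.64 log2 in #10, 6.83 in #3 and 5.82 in #1 at day 5, against 5.69 in the day 5 array labelled scramble, and 7.24 in #10, 6.57 in #3 and 6.13 in #1 at day 2, against 5.67 in scramble. Both scramble values lie under the filter and the gene was tested only through its hairpin arrays, so its call (adjusted p = 0.047) supports nothing by itself and no size is given. Of 6 tested genes of MCL1 and BIM turnover, 1 was called against the same 2.01%, DUSP6, at 2.36 log2 in #10 (SE 0.45, adjusted p = 0.0495), a phosphatase that acts on ERK and not on MCL1 or BIM themselves, and MAPK3, which encodes the kinase ERK1, stood at 0.78 (0.091).

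Monocyte and macrophage markers were high in the arrays where BCL2A1 and MCL1 were. Their summed signal was 12.3 log2 in #10, 11.1 in #3 and 9.47 in #1 at day 5, against 9.60 in the day 5 array labelled scramble, and 10.4 in #10, 9.52 in #3 and 9.47 in #1 at day 2, against 9.41 in scramble. CD14 had 10.65 log2 in #10 and 8.43 in #3 at day 5, against 5.15 in the day 5 array labelled scramble, and CD163 had 10.27 in #10 and 7.92 in #3, against 4.86 there. Both genes lay under the filter in both scramble arrays, and also in #10 at day 2, where BCL2A1 had 8.76 log2. In #10 over both days, where 2.01% of all tested genes were called, 1 of 5 tested markers was called, the lysosomal CD68 (1.29 log2, adjusted p = 0.049), and MRC1 lay under the filter. Of the lymphoid list 1 of 3 tested genes was called there, CD3D (2.24 log2, adjusted p = 0.013), with summed signals of 10.5 to 11.9 log2 in hairpin arrays and 10.2 to 10.6 in scramble arrays. Summed erythroid and megakaryocyte markers were 8.32 to 9.24 in hairpin arrays and 8.21 to 8.45 in scramble arrays, and fibroblast and epithelial ones were 8.26 to 8.73 in hairpin arrays and 8.49 to 8.50 in scramble arrays. The part of these genes in the BCL2A1 and MCL1 values was not tested.

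The genes most like the most variable member of each class over the 8 arrays are named as a description. For BCL2A1 they were AKAP13, a scaffold of protein kinase A (Pearson r of 0.994), DDX60L, a helicase-like gene (0.992), and the epithelial membrane protein gene EMP1 (0.990). EMP1 stood 3.60 and 3.04 log2 above scramble in #10 at day 5 and day 2. For BBC3 they were the forkhead factor FOXO3 (0.987), CCNG2, the cyclin G2 gene (0.975), and TMEM120A (0.974), and for BAX they were CFAP68 (0.960), RNASEH2B (0.959) and WDR90 (0.947), where BAX itself varied little. FOXO3 stood at 0.59 and 0.72 log2 in #10 at day 5 and day 2, and 0.69 and 0.72 in #3, and CCNG2 at 1.23 and 1.89 in #10. Within the family, BBC3 and BCL2A1 had an r of 0.72, MCL1 and BCL2L11 one of 0.77, BCL2L1 and BID 0.80, and BAX and BID -0.80. The genes named for BCL2A1, BBC3 and BAX had the highest r of 12844, over arrays that share 4 constructs and 2 days.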

How the data were processed

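The authors deposited log2 signals of 49395 probe sets for 8 Affymetrix arrays. Partek is named per the submitters' processing notes, and neither its version nor the normalization is given in the sources used here. The log2 scale was inferred from the range of the values, and array medians lay between 6.30 and 6.43. No file gave counts or a measure of background.

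The array annotation gave a single gene for 44994 probe sets, 1832 had several and 2569 none. Of the single-gene sets, 44967 were matched to RefSeq by gene identifier and took its symbol, whether or not it differed. A gene was taken from its single-gene probe set with the highest mean, and those whose mean exceeded the 40th percentile, 5.83 log2, were tested. Models were fitted by limma 3.58.1 (R 4.3.3) with empirical Bayes moderation. Pooled comparisons came from a model of group means by day, with residual and prior degrees of freedom of 4 and 3.13, in which the lone scramble array of a day is assumed to vary as hairpin arrays do. Hairpin comparisons came from a model of construct plus day, with residual and prior degrees of freedom of 3 and 4.54, with days as repeats and a spread pooled over constructs. Tests were two-sided and Benjamini-Hochberg adjusted over all tested genes, with 0.05 as threshold. The fits were also run on simulated data with independent noise in each array. Such data cannot test the use of days as repeats or of a lone scramble array.

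The members and gene lists were chosen with earlier results of these data known. Named were all members, tested relatives, called genes of each pathway list or otherwise the 2 with the largest mean change, the 3 genes most like the most variable member of each class, CDK2, and a member's other probe sets where the sign differs. Alternatives were quantile normalization, median centring, averaging all probe sets per gene, no filter, an intensity trend, hairpin arrays only, a replicate block and leaving out each array or hairpin. Same-numbered hairpins shared a construct but not every pair deviated together, so the block stands as an alternative. Some genes of the lists and 1 searched motif are not reported here.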

Additional observations from a re-analysis of the deposited data

How the results depend on the processing

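In #10 against scramble, BBC3 was the called member (1 of 10). The count was 2 with quantile normalization (BBC3 and MCL1, adjusted p = 0.0495) and 0 with the mean of all probe sets. Leaving out single arrays gave 0 to 3 members, and leaving out all of #1 or all of #3 gave 3. In #10 against #1 the count was 3 without all of #3, and 0 to 3 without single arrays. In #3 against scramble, and in #3 against #1, single arrays left out gave 0 to 1. The other 6 comparisons had 0 members called under every alternative run. Over all tested genes, the 258 calls in #10 became 82 with median centring, 960 without #3 and 0 without either scramble array, and the 42 calls in #10 against #1 became 0 with median centring, 0 with hairpin arrays only, 19 with the mean of probe sets and 612 without #3.

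Values of uncalled members that turned sign were, with the mean of all probe sets, BCL2 (-0.014) and MCL1 (-0.024) in #3 and BAX (-0.125) in #10, and with median centring BAK1 in #10 (0.00051). Leaving out single arrays gave, in #10, BCL2 -0.60 to 0.082, BCL2L1 -0.23 to 0.66, BAX -0.0011 to 0.40, BAK1 -0.40 to 0.34, PMAIP1 -0.039 to 0.76 and BID -0.52 to 0.37. It gave MCL1 -0.13 to 0.95 and BCL2A1 -0.032 to 2.82 in #3, and MCL1 -0.073 to 0.54 and BCL2A1 -0.68 to 1.50 in #1. The cause was not tested. BCL2A1 was not tested under the mean of probe sets, since that mean lies under the filter.

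With the hairpin number as a replicate block, 0 members were called between days, BCL2A1 stood at 1.50 log2 (adjusted p = 0.999), and the difference between days for BID was 0.69 (0.919). Deviations of the hairpins from the mean of their day correlated over days by 0.432 in #10, -0.228 in #3 and 0.715 in #1, so not every hairpin was most like itself.

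Quantile normalization moved the median of all genes to -0.11 in #10 against #1. With 1 array per construct and day, a difference between cultures of 1 construct could not be measured, and dim signals near the filter understate or overstate folds by an unknown amount.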
